A study of Mus musculus with 107 samples.

Results

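The analysis followed 5 genes of the vascular endothelial growth factor (VEGF) receptor system through 12 mouse tumor models: the receptor tyrosine kinases Kdr, Flt1 and Flt4 and the co-receptors Nrp1 and Nrp2. They are the 5 rows of the deposited expression table, of 50686 genes in all, that carry these symbols. The study built a gene score of microvessel density. It related vessel density and a T cell-inflamed signature to tumor responses to lenvatinib, anti-PD-1 or both. Lenvatinib (LEN) is an oral inhibitor of VEGF receptors and fibroblast growth factor receptors. RNA-seq was available for 107 subcutaneous tumors grown in immunocompetent mice of matched strain. Each model had 3 groups of 3 tumors, except that MC38 had 2 treatment-naïve tumors.

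Treatment-naïve tumors (labeled Base, 35 tumors) were taken at about 100 mm3 before any dosing. Untreated tumors (NT, 36 tumors) were taken on day 8 without drug. LEN tumors (36 tumors) were taken on the same day after 7 daily oral doses of lenvatinib at 10 mg/kg. The liver models were BNL 1ME A.7R.1 (BNL) in BALB/cAnNCrlCrlj mice and Hepa 1-6 in C57L/J mice, both in males. All other models were grown in females: Renca, RAG, CT26.WT, 4T1 and EMT6 in BALB/cAnNCrlCrlj, MC38 and B16-F10 in C57BL/6NCrl, LL/2 in C57BL/6JCrl, MBT2 in C3H/HeNCrl and KLN205 in DBA/2NCrl. Mice were 7 weeks old at implantation. The labels give no engineered allele for any group. Each model is 1 transplanted cell line, RAG cells having been passaged in mice first, and every library is bulk tissue that holds tumor, stromal, vascular and immune cells together. The 3 groups of a model shared the cell line, strain and sex.

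Kdr (VEGFR2) is the main signaling receptor for VEGF-A on blood vessel endothelium. Flt1 (VEGFR1) binds VEGF-A, VEGF-B and placental growth factor, signals weakly as a kinase and is also made as a soluble protein that traps ligand; monocytes and macrophages carry it as well. Flt4 (VEGFR3) binds VEGF-C and VEGF-D, marks lymphatic endothelium and appears on sprouting tumor vessels. Nrp1 and Nrp2 have short cytoplasmic tails without kinase activity, bind class 3 semaphorins with plexins, and present VEGF-A or VEGF-C to the receptor kinases; both are also made by many tumor cells, fibroblasts and leukocytes. Levels are given as TPM, an abundance scaled for transcript length and to the same total in every library, so levels of different genes can be set side by side. Gene-level values do not separate membrane from soluble forms. In bulk tissue, fewer cells of a type and less RNA per cell cannot be told apart.

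All 107 tumors were closest in expression to another tumor of the same model, and 100 to one of the same group. Tumor-type markers were present in B16-F10, Hepa 1-6, Renca, RAG, KLN205 and 4T1. Of the renal list, however, Lrp2 was low, at a mean of 0.767 TPM in Renca and 0.0122 TPM in RAG. Hepatocyte markers were near 0 in BNL, and Nkx2-1 and Sftpc were listed at 0 in all 9 LL/2 tumors. Cdx2 was near 0 in both colon models. Krt20, of the same list, was at a mean of 46.6 TPM in CT26.WT and 0.15 TPM in MC38. The uroplakins Upk1b, Upk2 and Upk3a were at or near 0 in MBT2. In EMT6, a mammary model, Krt8 was high at a mean of 263.2 TPM, but Epcam was at 0.909 TPM. Read depth cannot be read from TPM. Protein-coding genes held 27.5% of all TPM in 1 LEN tumor of 4T1 and at least 37.1% in every other tumor, so values of 4T1 that rest on that tumor are also given without it. More than 1 sequencer type was used, and which tumors ran on which is not given in the sources used here.

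In the GENCODE annotation of GRCm38, Kdr lies on the minus strand at chr5:75932827-75978458 and Flt1 on the minus strand at chr5:147561604-147726011. Flt4 lies on the plus strand at chr11:49609263-49652739. The longest coding transcript of each receptor kinase has 30 exons. Nrp1 lies on the plus strand at chr8:128358604-128503363 with 17 exons, and Nrp2 on the plus strand at chr1:62703285-62818695 with 16. The Nrp2 locus also holds 2 further annotated genes, the antisense Gm29083 with a highest level of 7.21 TPM and Gm37121 on the same strand with a highest level of 4.41 TPM. Both levels are under the lowest Nrp2 level of 12.59 TPM. Whether reads were counted by strand is not given in the sources used here.

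Promoters are shown for the receptor kinase pair Kdr and Flt1 and for Nrp2, the gene with a positive mean change under LEN. With the model as the unit, that change did not pass (exact sign-flip test, P = 0.0713). All 5 genes were matched in RefSeq (GRCm38.p6), and the 250 bases before the RefSeq transcript start were searched. Only bases that also lie outside the gene as GENCODE annotates it are printed, which leaves 247 for Kdr, 250 for Flt1 and 218 for Nrp2. Capitals mark the ETS core, GGAA or its reverse complement TTCC, the letters that ETS factors of endothelial and many other cells bind. The 3 stretches are chr5:75978459-75978705 (Kdr, minus strand), chr5:147726012-147726261 (Flt1, minus strand) and chr1:62703067-62703284 (Nrp2, plus strand), printed 5′ to 3′ on the gene's strand.
Kdr: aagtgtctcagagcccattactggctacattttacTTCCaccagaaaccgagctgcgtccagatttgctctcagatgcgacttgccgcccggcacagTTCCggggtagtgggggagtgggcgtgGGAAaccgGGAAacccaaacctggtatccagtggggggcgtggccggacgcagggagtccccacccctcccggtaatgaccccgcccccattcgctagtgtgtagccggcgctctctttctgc
Flt1: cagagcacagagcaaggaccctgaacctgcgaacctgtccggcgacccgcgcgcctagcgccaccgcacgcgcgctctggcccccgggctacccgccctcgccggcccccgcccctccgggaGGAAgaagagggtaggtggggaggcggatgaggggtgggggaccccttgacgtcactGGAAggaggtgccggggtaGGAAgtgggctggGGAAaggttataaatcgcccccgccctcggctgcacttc
Nrp2: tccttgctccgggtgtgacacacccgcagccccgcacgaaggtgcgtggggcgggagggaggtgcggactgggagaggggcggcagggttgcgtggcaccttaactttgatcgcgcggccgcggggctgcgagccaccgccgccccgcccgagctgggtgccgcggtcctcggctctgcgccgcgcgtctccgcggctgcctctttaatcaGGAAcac
Over all 250 bases Kdr held 4 ETS cores, Flt1 held 4 and Nrp2 held 1. The windows of Flt4 and Nrp1, which lie inside the annotated genes and are not printed, held 2 and 4. Of 27025 RefSeq promoters of the same length, 93.4% held at least 1 such core, and the median promoter held 3. The GC box GGGCGG (or CCGCCC) matched 2 times in Kdr, 3 in Flt1 and 5 in Nrp2, against 32.9% of all promoters with a match. A TATAAA box (or TTTATA) was found in Flt1 and in none of the other 4 windows, and 13% of all promoters held one. These matches describe letters in the window and were not tested against the expression values.

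The neuropilins were by far the more abundant transcripts. Over the 107 tumors the median level was 65.33 TPM for Nrp2 and 20.81 TPM for Nrp1, against 8.96 TPM for Flt1, 4.22 TPM for Kdr and 1.23 TPM for Flt4. Ranked by mean level among 21764 protein-coding genes, Nrp2 stood at percentile 93.9, Nrp1 at 82.9, Flt1 at 62.6, Kdr at 52.4 and Flt4 at 45.6. The sum of Nrp1 and Nrp2 exceeded the sum of the 3 receptor kinases in 107 of 107 tumors. Flt1 was above Kdr in 96 of 107 tumors, and Nrp2 above Nrp1 in 86 of 107. None of the genes was at 0 in any tumor, but Flt4 was under 1 TPM in 41 tumors.

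**Figure D1:**
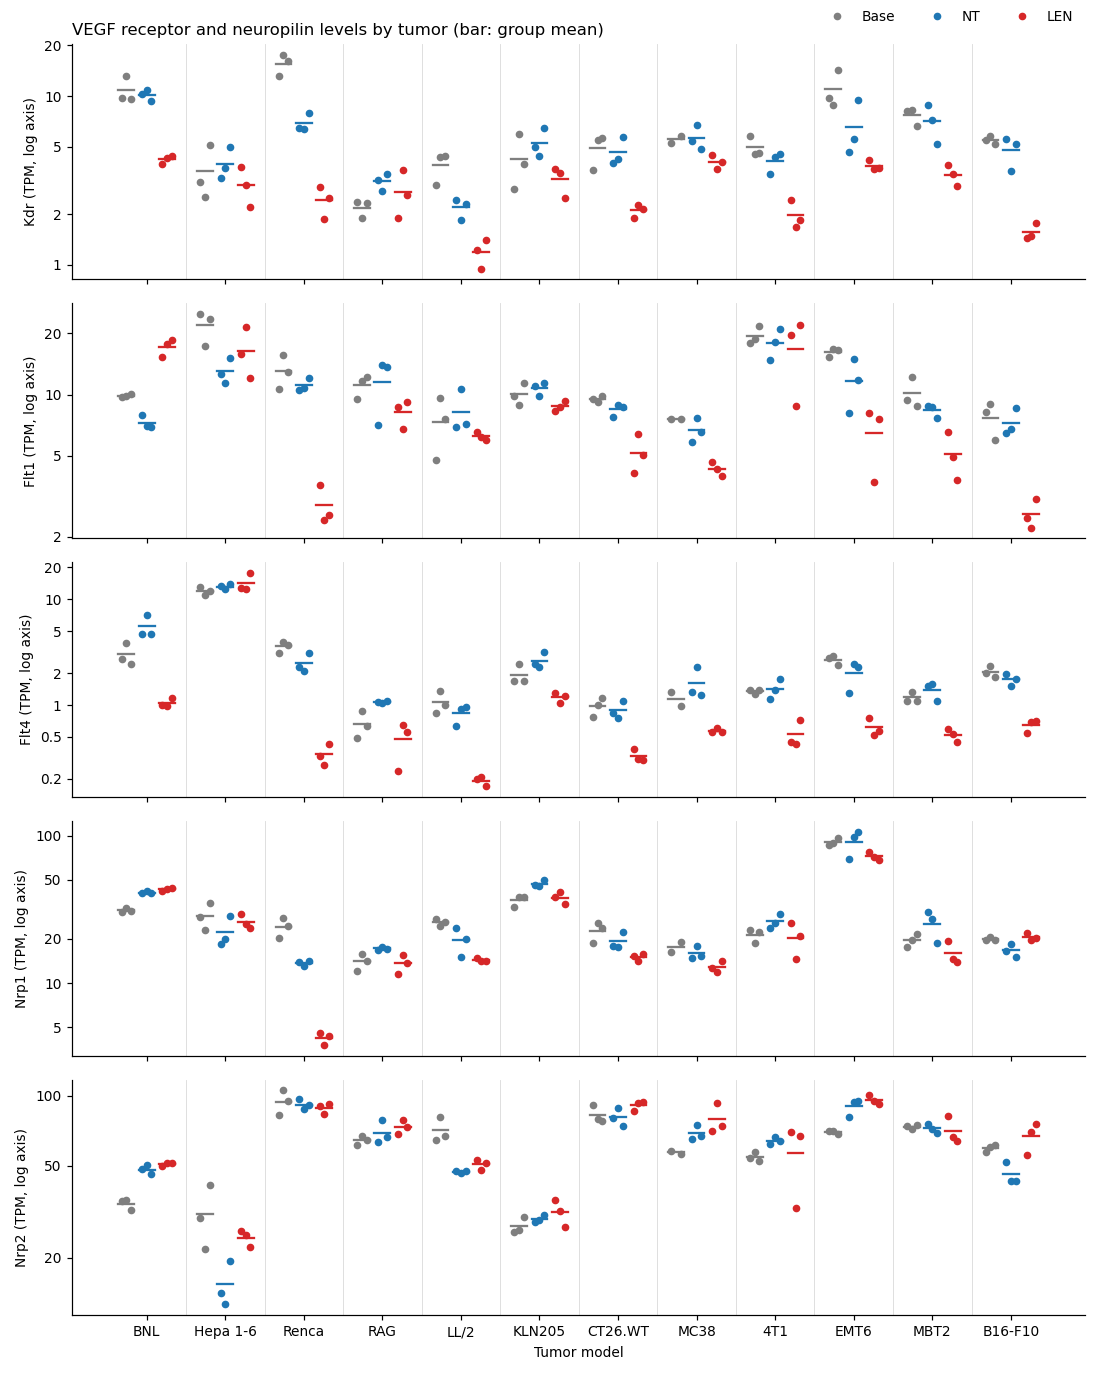
TPM of each gene (log axis) in every tumor of the 12 models, with treatment-naïve (Base, gray), untreated day 8 (NT, blue) and LEN (red) tumors as points and group means as bars. Kdr and Flt4 of LEN tumors sit below NT in most models, Flt1 of BNL goes up, and Nrp2 shows little separation.

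Before treatment, the level of every gene differed between models. All 5 passed the limma F test over the 12 models (adjusted P from 1.9e-08 for Flt1 to 2e-15 for Flt4), as did 93.6% of the 17542 genes tested. The gap between the highest and the lowest model mean was 18.1-fold for Flt4, 7.11-fold for Kdr, 6.48-fold for Nrp1, 3.46-fold for Nrp2 and 2.98-fold for Flt1. Across all genes, a model was called higher than the mean of the other 11 in 26.5% of contrasts and lower in 30.6%. The numbers of models called higher and lower were 4 and 4 for Kdr, 3 and 3 for Flt1, 4 and 6 for Flt4, 3 and 5 for Nrp1, and 5 and 3 for Nrp2. Of the 12 contrasts per gene, these shares lie near the background for most of the genes.

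Renca had the highest treatment-naïve Kdr, with 13.16, 17.48 and 16.08 TPM in its 3 tumors. EMT6 (9.8, 8.9 and 14.29 TPM) and BNL (10.8 TPM ± 1.98, SD, n = 3) came next and differed by less than their spread. MBT2 followed at 7.70 TPM ± 0.914 (n = 3). From MC38 at 5.55 TPM down to Hepa 1-6 at 3.59 TPM, each of 7 models differed from its neighbor in the order by less than the larger SD. RAG was lowest with 2.36, 1.89 and 2.32 TPM, beyond the spread of Hepa 1-6. Its values did not overlap those of Renca, the other renal model.

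Flt1 was ordered differently. Hepa 1-6 was highest at 24.91, 17.31 and 23.47 TPM, within its spread of 4T1 (19.5 TPM ± 2.01, n = 3), and EMT6 followed at 16.2 TPM ± 0.794. These 3 models were the ones called higher than the others. LL/2 was lowest with 4.78, 9.64 and 7.59 TPM and differed from MC38 (7.60 TPM) and B16-F10 (7.72 TPM) by less than the spread.

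Flt4 set Hepa 1-6 apart from all other models. Its treatment-naïve tumors held 13.18, 10.87 and 12.10 TPM, and the next model, Renca, held 3.12, 3.94 and 3.68 TPM. BNL (3.03 TPM) and EMT6 (2.69 TPM) were within the spread of their upper neighbor. RAG was lowest at 0.49, 0.87 and 0.64 TPM.

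EMT6 stood apart for Nrp1 with 86.59, 89.29 and 96.67 TPM. KLN205 was next at 36.4 TPM, and RAG was lowest at 12.05, 15.83 and 14.20 TPM. For Nrp2 the order was led by Renca with 82.32, 105.59 and 95.55 TPM and closed by BNL (34.2 TPM ± 1.86), Hepa 1-6 (30.8 TPM ± 9.68) and KLN205 (27.3 TPM ± 2.23), which differed from one another in turn by less than the spread. KLN205 and BNL were thus high in one neuropilin and low in the other, whereas RAG had the lowest Nrp1 and an Nrp2 of 64.5 TPM.

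Set against 13 pan-endothelial markers, the genes tracked these markers to different degrees. Over the 12 treatment-naïve model means, Pearson r with the mean of these markers was 0.80 for Kdr, 0.61 for Flt4, 0.52 for Nrp1, 0.46 for Flt1 and −0.05 for Nrp2. By Spearman rho the order changed, with 0.81 for Flt4, 0.65 for Kdr, 0.45 for Nrp1, 0.32 for Flt1 and −0.07 for Nrp2. Over the NT model means, r was 0.73 for Kdr and 0.56 for Flt4 and rho 0.41 and 0.72, and r for Flt1 was −0.11. Over the LEN model means, r was 0.61 for Nrp1, 0.56 for Flt4, 0.56 for Flt1, 0.54 for Kdr and −0.42 for Nrp2. There rho was 0.81 for Flt4, 0.64 for Nrp1, 0.63 for Kdr, 0.41 for Flt1 and −0.25 for Nrp2. These correlations are descriptions over 12 models that share the scale of each library. The pan-endothelial list (Pecam1, Cdh5, Tie1, Tek and others) summed to a median of 206.71 TPM in treatment-naïve tumors, with a range from 78.84 to 411.53 TPM.

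Kdr and Flt1 were slightly lower on average in untreated day 8 tumors than in treatment-naïve tumors. From treatment-naïve to untreated day 8 tumors, the mean change over the 12 models on the log2(TPM + 1) scale was −0.18 for Kdr (SE 0.059, limma adjusted P = 0.016) and −0.19 for Flt1 (SE 0.054, adjusted P = 0.0071). The changes of Flt4 (0.07), Nrp1 (−0.04) and Nrp2 (−0.04) did not pass. The background was 11.5% of 17428 genes lower and 17% higher, a split of 2002 to 2971 genes that became 3519 to 1421 after upper-quartile rescaling and 4458 to 1193 after rescaling over protein-coding genes. Both rescalings also put Nrp2 past the threshold, at −0.09 and −0.10. The Kdr call did not hold without Renca (−0.10, adjusted P = 0.223), without LL/2 (adjusted P = 0.0761) or without EMT6 (adjusted P = 0.0854), and the Flt1 call not without Hepa 1-6 (−0.14, adjusted P = 0.0521). In the exact two-sided sign-flip test over the 12 model effects, Flt1 passed (P = 0.0176) and Kdr did not (P = 0.163). Any difference in sequencer between the days cannot be told apart from the day.

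The models behind these means differed. The change differed between models for Kdr, Flt4, Nrp1 and Nrp2 by the F test, which 66.5% of genes passed, and for Flt1 it missed the threshold (adjusted P = 0.124). Across all genes and models, 5.22% of single-model changes were called lower and 8.69% higher. In Renca, where 10.3% of genes were called lower, Kdr fell by 1.06 on this scale (adjusted P = 0.00023), from 13.16 to 17.48 TPM in treatment-naïve tumors to 6.43 to 7.92 TPM in untreated ones, with no overlap, and Nrp1 fell by 0.76. Kdr also fell in EMT6 (−0.69, with 11.7% of genes lower) and LL/2 (−0.61, with 3.72% lower), and Flt1 in Hepa 1-6 (−0.70, with 19.6% lower) and EMT6 (−0.49). BNL, with 22.5% of genes higher, went the other way for 3 genes on the deposited scale, with Flt4 at 0.69, Nrp2 at 0.48 and Nrp1 at 0.39. Nrp2 fell in Hepa 1-6 (−0.94) and LL/2 (−0.57) and was higher in EMT6 (0.36, with 21.6% of genes higher). The protein-coding share of all TPM also differed between these groups, at a mean of 47.3% in treatment-naïve and 55.7% in untreated tumors of BNL, and 44.7% and 58.9% in EMT6. After upper-quartile and protein-coding rescaling Nrp2 of EMT6 was at 0.08 and −0.03, Nrp1 of BNL at 0.19 and 0.16, and Flt1 of Hepa 1-6 at −0.49 and −0.54, none past the threshold. Nrp2 of BNL was at 0.28, still past it, and at 0.25 (adjusted P = 0.103), and Flt1 of BNL (−0.58 and −0.64, beside −0.39 without) and Flt4 of EMT6 (−0.50 and −0.69, beside −0.31) were called lower under both. One rescaling alone added lower calls for Nrp1 of EMT6 (−0.41, protein-coding), and for Nrp1 of LL/2 (−0.44) and Nrp2 of B16-F10 (−0.38), both upper-quartile. The falls of Kdr in Renca, EMT6 and LL/2, of Nrp1 in Renca, of Flt1 in EMT6 and of Nrp2 in Hepa 1-6 and LL/2 and the rise of Flt4 in BNL passed under both.

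LEN lowered the 3 receptor kinases and Nrp1 on average and left Nrp2 slightly higher. Compared with NT tumors of the same day, the mean change over the 12 models was −0.74 for Flt4 (SE 0.041, limma adjusted P = 1.1e-20), −0.71 for Kdr (SE 0.051, adjusted P = 3.6e-16), −0.43 for Flt1 (SE 0.066, adjusted P = 7.7e-07), −0.32 for Nrp1 (SE 0.045, adjusted P = 1.3e-07) and 0.14 for Nrp2 (SE 0.042, adjusted P = 0.012). Of 17351 genes tested, 9.87% were called lower and 13.7% higher. That split of 1712 to 2371 genes became 3160 to 2275 after upper-quartile rescaling and 2889 to 2652 after rescaling over protein-coding genes. All 5 genes kept their direction and call under both. Kdr was lower in 12 of 12 models, which held for 0.548% of genes, and 0.455% of genes had a mean change as low as that of Kdr and 0.38% as low as that of Flt4. Flt4 was lower in 11 models, Flt1 in 10 (9 without the 4T1 tumor of low protein-coding share) and Nrp1 in 9, whereas Nrp2 was higher in 9 (10 without that tumor).

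With the model as the unit, in an exact two-sided sign-flip test over the 12 model effects, Kdr (P = 0.000488, the smallest this test can give), Flt4 (P = 0.000977) and Nrp1 (P = 0.0161) passed, but Flt1 (P = 0.0562) and Nrp2 (P = 0.0713) did not. The Nrp2 call was also lost without Hepa 1-6 (0.09, adjusted P = 0.128) or without B16-F10 (0.10, adjusted P = 0.0941). The size of the LEN effect differed between models for all 5 genes by the F test (adjusted P from 1.7e-07 for Flt4 to 0.022 for Nrp2), which 35.3% of genes passed. The call for Nrp2 was lost without any 1 of 3 Hepa 1-6 tumors, at an adjusted P of up to 0.0665. These comparisons share their NT tumors with the comparison of untreated and treatment-naïve tumors.

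**Figure D2:**
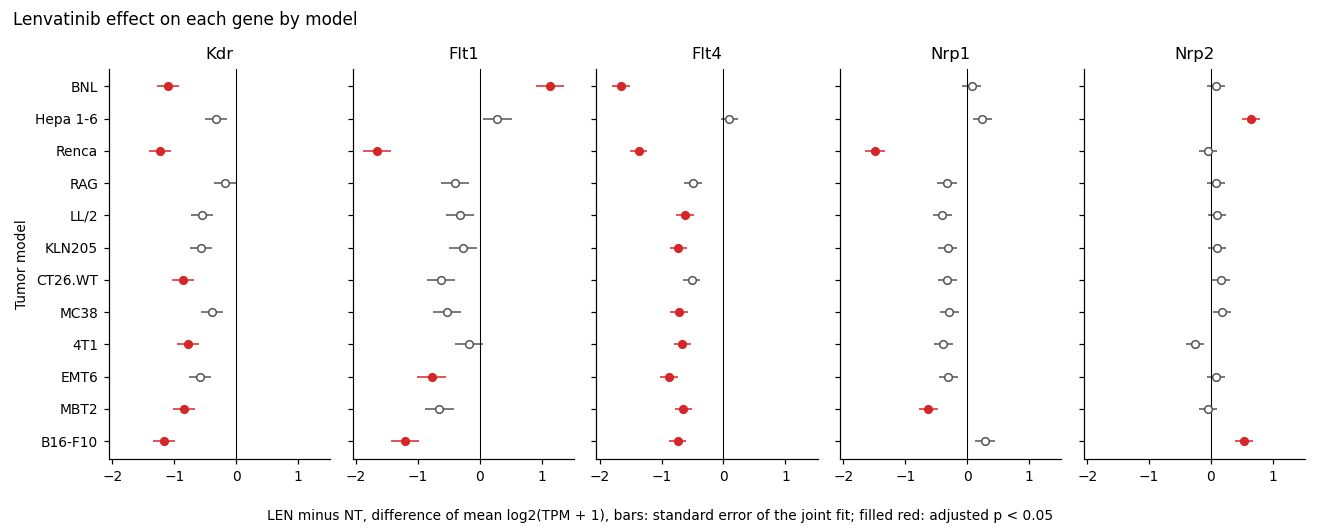
LEN minus NT difference of mean log2(TPM + 1) for each gene and model with the standard error from the fit of all 72 NT and LEN tumors, filled in red where the adjusted P of that fit is under 0.05. Kdr is left of 0 in 12 models and Flt4 in 11, Flt1 of BNL is the one filled point to the right among the receptor kinases, and Nrp2 is filled on the right in Hepa 1-6 and B16-F10.

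Within single models, where 3 LEN tumors faced 3 NT tumors, groups did not overlap for Kdr in 10 models, for Flt4 in 11, for Flt1 in 7 downward and 1 upward, for Nrp1 in 6 downward and 1 upward, and for Nrp2 in 3 upward. Over all genes and models such separation was found downward in 10.9% and upward in 13.5%. A permutation test of 3 against 3 tumors cannot go under 0.1, so calls come from limma fits within each model. Summed over the 12 fits, 1.3% of genes were called lower and 3.56% higher, and 2.88% and 4.17% in the single-model contrasts of the fit of all 72 tumors. On the deposited scale the median gene shifted by 0.17 in BNL, 0.14 in Hepa 1-6, −0.13 in LL/2 and −0.19 in 4T1, and by less than 0.05 in the others. These shifts were −0.011, 0.011, −0.0061 and −0.13 after upper-quartile rescaling and 0.061, 0.097, −0.062 and −0.030 after protein-coding rescaling.

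Kdr, the main VEGF-A receptor, was called lower in 3 models, Renca, B16-F10 and BNL, where 7.15%, 2.42% and 5.21% of genes were called lower. In Renca the NT tumors held 6.50, 6.43 and 7.92 TPM and the LEN tumors 2.9, 1.86 and 2.5 TPM, a change of −1.22 (SE 0.148, adjusted P = 0.0029). In B16-F10 it went from 5.58, 3.59 and 5.2 TPM to 1.44, 1.48 and 1.78 TPM (−1.16, SE 0.172, adjusted P = 0.0095). In BNL it went from 10.23, 10.93 and 9.36 TPM to 3.94, 4.29 and 4.45 TPM (−1.09, SE 0.0995, adjusted P = 0.00044). The highest LEN tumor was below the lowest NT tumor in all 3 models. The fit of all 72 tumors, with a shared spread, called 6 models, adding CT26.WT (−0.85, with 0.346% of genes lower), MBT2 (−0.85, with 1.22%) and 4T1 (−0.78, with 15.8%). After upper-quartile rescaling it called 8 models, with EMT6 (−0.65) and KLN205 (−0.55) added, and after protein-coding rescaling 7, with EMT6 (−0.73) added. Fitted alone, 4T1 did not pass (adjusted P = 0.736), and without its tumor of low protein-coding share the difference was −0.70 (adjusted P = 0.263). The smallest differences were in RAG (3.18, 2.76 and 3.44 TPM in NT, 1.89, 3.65 and 2.60 TPM in LEN) and Hepa 1-6 (3.26, 3.73 and 4.98 TPM in NT, 3.79, 2.96 and 2.21 TPM in LEN), and in both the groups overlapped. Between the treatment-naïve Kdr level and the LEN effect on Kdr, Pearson r was −0.72 and Spearman rho −0.70 over 12 models, and r was −0.45 over the 10 models left without the 2 farthest from the median level. For Flt4, r was 0.12 and rho −0.51 over 12 models, and r was −0.79 over the 10 models left in the same way. For Flt1, Nrp1 and Nrp2, r lay between −0.36 and 0.16 over 12 models and between −0.19 and 0.14 over 10. These coefficients are descriptions, since both measures come from the same gene and models.

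Flt1, which also traps ligand as a soluble form, moved in opposite directions. In Renca it fell from 10.48, 10.80 and 12.08 TPM to 3.59, 2.42 and 2.55 TPM (−1.66, SE 0.136, adjusted P = 0.00072), and in B16-F10 from 6.49, 6.78 and 8.56 TPM to 2.47, 2.22 and 3.08 TPM (−1.20, SE 0.146, adjusted P = 0.005). In BNL it rose from 7.94, 6.98 and 6.93 TPM to 15.37, 17.68 and 18.51 TPM (1.13, SE 0.10, adjusted P = 0.00039). The groups were apart in all 3 models. In BNL 26.3% of genes were called higher, and the rise of Flt1 was 0.94 after upper-quartile rescaling and 1.05 after rescaling over protein-coding genes, both past the threshold. The ratio of Flt1 to Kdr in BNL was 0.639 to 0.776 in NT tumors and 3.90 to 4.16 in LEN tumors. The same ratio in B16-F10 ranged from 1.16 to 1.89 in NT and from 1.5 to 1.73 in LEN tumors. Flt1 of 4T1 was 14.85, 18.13 and 20.91 TPM in NT and 19.55, 8.79 and 21.93 TPM in LEN tumors. The low value belongs to the tumor of low protein-coding share, and without it the difference changed sign from −0.18 to 0.21, with no call either way. In Hepa 1-6 the groups overlapped, at 12.62, 11.35 and 15.20 TPM in NT and 15.83, 21.50 and 12.04 TPM in LEN tumors (0.29, adjusted P = 0.442).

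Flt4, the VEGF-C and VEGF-D receptor, had the lowest levels and some of the largest relative falls. In BNL it went from 4.74, 7.17 and 4.70 TPM to 1.00, 0.97 and 1.16 TPM (−1.66, SE 0.18, adjusted P = 0.00088). In Renca it went from 2.29, 2.08 and 3.12 TPM to 0.33, 0.27 and 0.43 TPM (−1.37, SE 0.175, adjusted P = 0.0037), a ratio of mean TPM of 0.138. In B16-F10 it went from 1.97, 1.51 and 1.76 TPM to 0.54, 0.69 and 0.70 TPM (−0.74, SE 0.177, adjusted P = 0.044), and that call was lost when any 1 of the 6 tumors was left out (−0.68 to −0.80, adjusted P 0.0744 to 0.143). The mean over NT and LEN tumors was under 1 TPM in RAG, LL/2, CT26.WT, 4T1 and MBT2, which left 7 models for the fits within models; the fit of all 72 tumors called 9 models lower, and 11 after either rescaling, with RAG and CT26.WT added. Because 1 TPM was added before the log, falls of a gene this low are understated: with 0.1 TPM added instead, the mean change was −1.37.

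Hepa 1-6 was the exception for Flt4. Its NT tumors held 13.24, 12.46 and 13.94 TPM and its LEN tumors 12.90, 12.40 and 17.80 TPM, and the difference of 0.10 (SE 0.146, adjusted P = 0.707) changed sign after upper-quartile rescaling or without the highest LEN tumor. Treatment-naïve Hepa 1-6 tumors were at 10.87 to 13.18 TPM. The 9 tumors of this model thus held 10.87 to 17.80 TPM across all groups, above the 7.17 TPM that was the highest level in any other model. In the same tumors, Cdh5 (VE-cadherin, an endothelial junction protein) was −0.93 and Pecam1 (CD31) −0.16 under LEN, neither past the threshold.

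Nrp1, the co-receptor for VEGF-A and semaphorin 3A, was called lower in Renca alone among the fits within models. There it went from 13.86, 13.05 and 14.20 TPM to 4.59, 3.79 and 4.35 TPM (−1.49, SE 0.0949, adjusted P = 0.0004). The fit of all 72 tumors added MBT2 (−0.63). In BNL, Nrp1 was 40.52, 42.11 and 40.72 TPM in NT and 42.03, 43.65 and 44.23 TPM in LEN tumors, so that Kdr and Flt4 fell there beside a difference in Nrp1 of 0.07 (adjusted P = 0.356), whose sign turned under both rescalings. In B16-F10, LEN tumors (21.93, 19.46 and 20.15 TPM) lay above NT tumors (16.52, 18.52 and 14.93 TPM) without a call (0.29, adjusted P = 0.116). EMT6 kept the highest Nrp1 of any model in LEN tumors, at 77.52, 71.71 and 68.04 TPM. Markers of other cells were lower in the same Renca tumors, with 6 of 8 macrophage and monocyte markers called lower and 1 higher (median −1.43) and 5 of 8 pericyte and smooth muscle markers lower and 1 higher (median −1.13), where 4.91% of genes were called higher. The macrophage list summed to 676.07 to 764.41 TPM in NT and 365.21 to 391.49 TPM in LEN tumors of Renca, and its part in the Nrp1 value was not tested. Without Renca the mean over the other 11 models was −0.21 (adjusted P = 0.00071).

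Nrp2, the co-receptor for VEGF-C and semaphorin 3F, passed the threshold in 0 of the 12 limma fits within models, against 2 models with an unadjusted P under 0.05. Those were Hepa 1-6, from 14.11, 12.59 and 19.28 TPM in NT to 26.06, 24.92 and 22.21 TPM in LEN tumors (0.66, adjusted P = 0.0976), and B16-F10, from 51.70, 43.05 and 42.83 TPM to 55.29, 69.65 and 75.92 TPM (0.53, adjusted P = 0.0513). In both the LEN tumors lay above the NT tumors, and the fit of all 72 tumors called both, beside 8.75% of genes higher in Hepa 1-6 and 9.34% in B16-F10. Fibroblast and macrophage markers were higher in the same B16-F10 tumors: 7 of 7 fibroblast markers tested (median 1.68) and 8 of 8 macrophage and monocyte markers (median 1.66) were called higher in the fit within B16-F10, as were 8.57% of genes. The fibroblast list summed to 129.11 to 155.35 TPM in NT and 466.38 to 620.71 TPM in LEN tumors there, and the macrophage list to 62.98 to 99.11 TPM and 224.70 to 311.66 TPM. In Hepa 1-6, where the median gene was at 0.14, the medians of the lists were 0.79 and 0.66, and 0 of 8 fibroblast and 0 of 8 macrophage markers passed the limma test, with 5 and 3 at an unadjusted P under 0.05. The part of these cells in the Nrp2 values was not tested. In Renca, where the other 4 genes fell, Nrp2 was 96.71, 87.41 and 91.13 TPM in NT and 90.11, 83.52 and 92.67 TPM in LEN tumors (−0.05, adjusted P = 0.746). The ratio of Nrp2 to Nrp1 in Renca was 6.42 to 6.98 in NT tumors and 19.6 to 22.04 in LEN tumors.

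The genes differed among themselves in the LEN effect. All 10 pairs and the 5 differences from the mean of the 13 pan-endothelial markers were compared over the 12 model effects by an exact two-sided sign-flip permutation test, adjusted over the 15. Nrp2 differed from every other gene: its effect was above that of Flt4 by 0.88, of Kdr by 0.85 and of Nrp1 by 0.46 in 12 of 12 models each (adjusted P = 0.00183), and above that of Flt1 by 0.57 in 10 of 12 models (SE 0.209, adjusted P = 0.0375). The last call was lost in 10 of 12 runs that left out a model. Nrp1 fell less than Kdr (difference of 0.39, SE 0.143, adjusted P = 0.0241) and less than Flt4 (0.42, SE 0.146, adjusted P = 0.00439). The 3 receptor kinases were not separated by this test with 1 TPM added and no rescaling: Kdr minus Flt1 was −0.28 (SE 0.201, adjusted P = 0.272), Kdr minus Flt4 was 0.03 (SE 0.0944, adjusted P = 0.731) and Flt1 minus Flt4 was 0.31 (SE 0.239, adjusted P = 0.272). With 0.1 TPM added before the log, Flt4 fell more than Kdr by 0.48 (adjusted P = 0.0176) and more than Flt1 by 0.86 (adjusted P = 0.00244). After protein-coding rescaling Flt1 minus Flt4 was 0.50, also past the threshold (adjusted P = 0.0238).

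**Figure D3:**
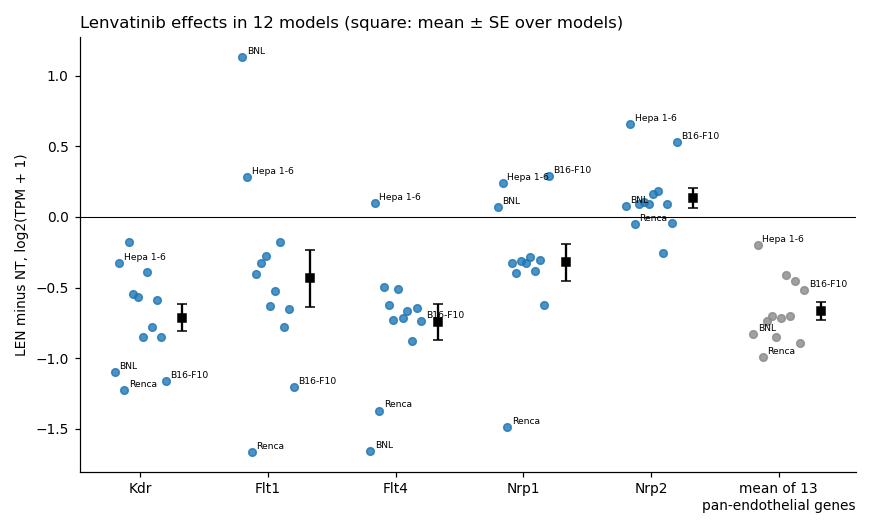
LEN minus NT on the log2(TPM + 1) scale for each gene and for the mean of 13 pan-endothelial markers, with the 12 models as points and the mean ± SE over models as squares. With 1 TPM added, the means of Kdr and Flt4 (−0.71 and −0.74) lie near the endothelial mean (−0.67), Nrp1 and Nrp2 lie above it, and Flt1 is spread from −1.66 in Renca to 1.13 in BNL.

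The endothelial markers fell beside the receptors. Of 12 pan-endothelial markers tested, 11 were called lower (11 also without the 4T1 tumor of low protein-coding share), with a list median of −0.73 against −0.0019 over all genes. Cdh5 (−1.17), Cldn5, a tight junction claudin (−1.09), and Emcn, the sialomucin endomucin (−1.0), fell most, Pecam1 fell by 0.72, and Vwf was at 0.07 without a call. The summed level of the list ranged from 82.00 to 354.57 TPM in NT and from 40.75 to 346.34 TPM in LEN tumors. Relative to the mean of the list (−0.67), Kdr differed by −0.05 (SE 0.0867, adjusted P = 0.649), Flt4 by −0.08 (SE 0.101, adjusted P = 0.589) and Flt1 by 0.23 (SE 0.202, adjusted P = 0.403). With 0.1 TPM added before the log, Flt4 fell more than the list by 0.49 (adjusted P = 0.00977). Nrp1 fell less than the list by 0.35 (SE 0.102, 11 of 12 models, adjusted P = 0.0208), and Nrp2 was above it by 0.80 (SE 0.052, 12 of 12 models, adjusted P = 0.00183). The part that a loss of endothelial cells has in the falls of Kdr, Flt1 and Flt4 was not tested.

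In BNL, 10 of 13 pan-endothelial markers were called lower and 1 higher, beside 5.21% and 26.3% of genes. There Flt1 rose, and Cdh5 was at −1.68 (limma adjusted P = 4.2e-05) and Pecam1 at −1.21 (adjusted P = 0.0023). The epithelial keratins Krt8 and Krt18 rose in the same BNL tumors. Krt8 went from 7.67 to 17.89 TPM in NT to 443.85 to 520.08 TPM in LEN tumors (5.23, adjusted P = 4.1e-05), and Krt18 from 4.48 to 14.07 TPM to 308.64 to 364.71 TPM (5.17, adjusted P = 0.00011), against 71.91 to 83.18 TPM and 45.70 to 69.00 TPM in treatment-naïve tumors. They belong to the mammary epithelial list, of which 2 of 3 genes tested were called higher in BNL (median 5.17). The third, Gata3, was at −0.41 (limma adjusted P = 0.0568), and Epcam was at a mean of 0.303 TPM under LEN. Of the colon epithelial list 2 of 2 tested were called higher (median 3.02). In the squamous list 1 of 2 tested was called higher, and Trp63 was at −0.41 without a call. The part of these epithelial markers in the rise of Flt1 was not tested. Macrophage and monocyte markers, of cells that also carry Flt1, summed to 833.23 to 866.36 TPM in NT and 800.58 to 974.79 TPM in LEN tumors of BNL, with a median change of 0.15. In B16-F10, Cdh5 fell by 1.26 (adjusted P = 0.004) and Pecam1 was −0.38 without a call. In Renca, Cdh5 fell by 1.98 and Pecam1 by 1.27.

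Some VEGF ligands rose under LEN. Of 5 VEGF ligands, 3 rose under LEN: Vegfa by 0.67 in 12 of 12 models (adjusted P = 8.6e-14), Vegfc by 0.23 with 8 of 12 models higher, and Vegfd by 0.17 with 6 models higher and 6 lower, with a list median of 0.17. The Vegfd call was lost after protein-coding rescaling (0.16, adjusted P = 0.0564). Among 6 class 3 semaphorins tested, which bind the neuropilins, Sema3e (0.35) and Sema3b (0.23) rose and Sema3f (−0.26) and Sema3g (−0.23) fell, with a list median of 0.07. Of 4 plexin partners of the neuropilins tested, 0 passed the limma test and 2 had an unadjusted P under 0.05. One of them, Plxnd1, named after its values were seen, passed as lower after upper-quartile (−0.16, adjusted P = 0.0101) and protein-coding rescaling (−0.15, adjusted P = 0.0233), beside −0.14 (adjusted P = 0.0513) without. Among 10 signaling partners of the VEGF receptors, Ptprb, the endothelial receptor-type phosphatase VE-PTP (−0.52), Nos3, endothelial nitric oxide synthase (−0.43), and Prkcb (−0.35) fell, Sh2d2a (0.27), Src (0.17) and Shb (0.12) rose, and the list median was 0.00083. Of 10 endothelial genes known to respond to VEGF, 8 fell and 1 rose, with a list median of −0.68. Esm1, a secreted proteoglycan of tip cells (−1.31), the basement membrane protein Nid2 (−1.26) and the potassium channel subunit Kcne3 (−0.99) changed most.

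Markers of other cells that make these receptors moved as well. Of 8 pericyte and smooth muscle markers 7 fell and 1 rose (median −0.45), with Rgs5 at −0.94, Abcc9 at −0.78 and desmin, Des, at 0.83. Of 8 macrophage and monocyte markers 5 fell and 1 rose (median −0.37), with Mrc1 at −0.53, Csf1r at −0.45 and the monocyte gene Ly6c2 at 1.02. Their summed level ranged from 62.98 to 1367.08 TPM in NT and from 224.70 to 1285.66 TPM in LEN tumors. The models went opposite ways: the median of this list ran from −1.43 in Renca to 1.66 in B16-F10 and was under 0 in 8 of 12 models. Of 4 lymphatic markers tested, Lyve1 fell (−0.62), Pdpn rose (0.35), and Prox1, the lymphatic transcription factor, was at −0.06 without a call. Of 8 fibroblast markers, Fap (−0.33) and Col1a1 (−0.29) fell and Dcn (0.36, with 7 of 12 models higher) rose. Their median was under 0 in 9 of 12 models, with 6 of 8 called lower in BNL, against 1.68 in B16-F10. The median of the pericyte list was under 0 in 12 of 12 models. Of 4 regulatory T cell markers, Il2ra (0.51), Ctla4 (0.47) and Foxp3 (0.25) rose. All 8 hypoxia-induced genes rose (median 0.53), Egln3 by 0.69, Slc2a1 by 0.64 and Ndrg1 by 0.59. Under both rescalings these cell-type and hypoxia counts were the same, except that 3 regulatory T cell markers were tested and 2 rose after upper-quartile rescaling. The part of these cell types in the receptor values was not tested.

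**Figure D4:**
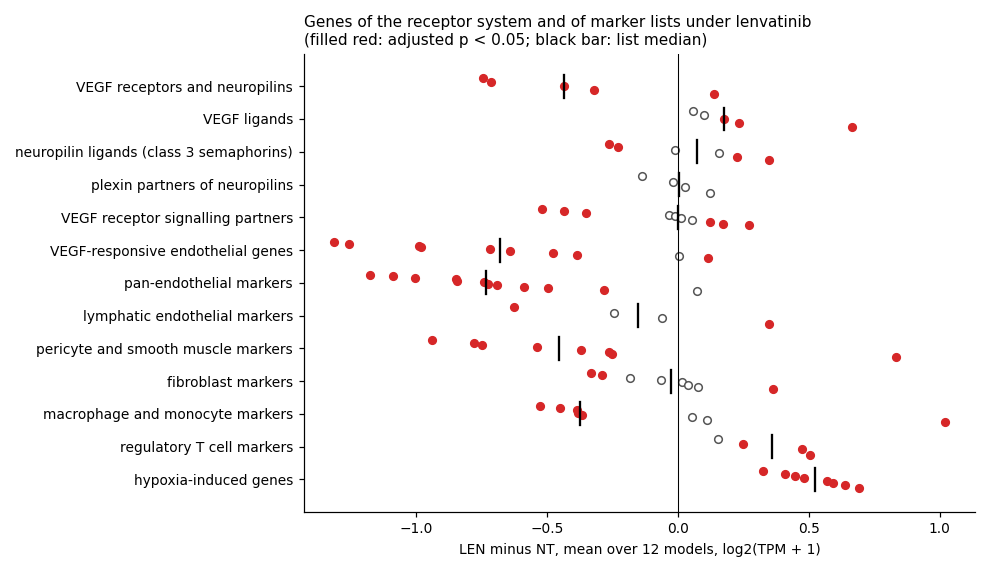
Mean LEN minus NT change over 12 models on the log2(TPM + 1) scale for each tested gene of the receptor system and of the marker lists, filled in red where the adjusted P is under 0.05, with list medians as black bars. Receptors, VEGF-responsive endothelial genes and pan-endothelial markers lie to the left (medians −0.43, −0.68 and −0.73), and VEGF ligands and hypoxia-induced genes to the right (medians 0.17 and 0.53).

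Between treatment-naïve and untreated tumors the same lists moved in another pattern. Of 13 pan-endothelial markers 8 fell (median −0.21), Cd34 by 0.42, Tek by 0.37 and Egfl7 by 0.34, and Pecam1 fell by 0.32, whereas Cdh5 (−0.10) did not pass. Of 8 hypoxia-induced genes 7 rose (median 0.37), with Bnip3 at 0.51, Adm at 0.50 and Slc2a1 at 0.42. Esm1 (0.54) and Apln (0.39) rose in this comparison and fell under LEN, and Plvap (−0.29) fell in both. Among the ligands, Pgf (0.32) and Vegfb (0.14) rose, Vegfd fell (−0.26), and Vegfa (0.10) did not pass. Of 8 fibroblast markers 4 fell, of 8 macrophage and monocyte markers 3 and of 4 regulatory T cell markers 3. The median over all genes was 0.013. Counts here moved with the scaling: after either rescaling 11 of 13 pan-endothelial markers fell, Cdh5 among them (−0.15 and −0.17), as did 7 of 8 fibroblast and 4 of 8 macrophage and monocyte markers, 6 of 8 hypoxia-induced genes rose, and the Vegfb call was lost after protein-coding rescaling (0.08, adjusted P = 0.0763).

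Genes with the most similar pattern to each receptor were ranked by Pearson r over the 36 group means among 17428 genes. For Kdr these were Robo4 (r = 0.87), an endothelial guidance receptor, then Cdh5, Rasip1, Emcn and Plvap (r = 0.85 for the fifth), of which Robo4, Cdh5 and Emcn are on the pan-endothelial list. For Flt4 they were Epas1 (r = 0.90), which encodes HIF-2α, then Kcnj8, which is on the pericyte list, Nostrin, Palmd and Reep1. For Flt1 they were the non-coding 4931413K12Rik (r = 0.77), Podxl, a sialomucin of vessels and podocytes, 1700051K13Rik, Gm28417 and Gm38346, none of them on chromosome 5 with Flt1. For Nrp1 they were Tgfbr2 (r = 0.87), a receptor for TGF-β, then Kirrel3, Dse, RP24-511J14.2 and Enpp1. For Nrp2 they were Arhgef2 (r = 0.82), Taf5l, Cpne2, Gcat and Mtor. None of the 5 genes nearest to Flt1, Flt4, Nrp1 or Nrp2 is on the pan-endothelial list. The group means share models and libraries, so these coefficients are a description. Flt4 of Hepa 1-6 and Nrp1 of EMT6 stood above every other model in all 3 groups, and r without these models was not computed.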

How the data were processed

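Bulk RNA-seq of 107 mouse tumors was analysed. Per the labels, libraries were made after ribosomal RNA depletion. The authors trimmed reads with Trimmomatic 0.36, aligned them to the mouse genome (GRCm38, mm10) with STAR 2.5.2b and deposited TPM values per gene from RSEM 1.2.31. TPM keeps no depth, so no counting error is given. Rows were taken as deposited, 0 columns were left unused, and samples were grouped by their titles. Replicates are labeled as separate tumors, and P values measure the spread between these tumors.

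TPM were transformed as log2(TPM + 1), genes with a mean of at least 1 TPM over the fitted tumors were kept, and limma 3.58.1 (R 4.3.3) with a mean-variance trend was used with Benjamini-Hochberg adjustment over all genes and a threshold of 0.05. NT and LEN tumors, and treatment-naïve and NT tumors, were fitted jointly over 24 groups (mean over models and F test of the difference between models), NT and LEN within each model, and the 35 treatment-naïve tumors over their 12 groups. A fold on this scale understates changes of low genes. Sign-flip tests used 4096 flips, and those of differences between genes were adjusted over the 15. Other steps used Python 3.11.15, pandas 2.3.3 and scipy 1.17.1. The tests were tested on simulated data.

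Alternatives were another pseudocount (0.1), other minima (none, 5 TPM), upper-quartile and protein-coding rescaling, no trend, a replicate block, and leaving out each tumor or model; leaving out the LEN tumor of 4T1 with the lowest protein-coding share in the list counts was chosen after seeing the data. The choice of the 5 genes, gene lists and tests was made with earlier results of these data known. Named from each list were at most the 3 genes with the largest change among those called, plus Pecam1, Cdh5 and Vegfa, and, per receptor, the 5 genes most alike. Outside this rule, Vwf, Prox1, Plxnd1, Krt8, Krt18, Krt20, Gata3, Trp63 and Lrp2 were named after their values were seen. So were the fourth semaphorin called and the further signaling partners called (counts of 3 in each direction).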

Additional observations from a re-analysis of the deposited data

Results flagged for a closer look

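The LEN effect differed between the 12 models for each of the 5 genes (limma F test, adjusted over all genes), and these differences were picked out because models responded unequally to the same treatment. The adjusted P was 0.00468 for Kdr, 2.13e-07 for Flt1, 1.74e-07 for Flt4, 5.68e-07 for Nrp1 and 0.0219 for Nrp2. For Flt1 the effects ran from −1.66 in Renca to 1.13 in BNL, for Flt4 from −1.66 in BNL to 0.10 in Hepa 1-6, and for Nrp1 from −1.49 in Renca to 0.29 in B16-F10.

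The change from treatment-naïve to untreated day 8 tumors also differed between models, with an adjusted P of 0.000668 for Kdr, 0.000687 for Flt4, 2.31e-05 for Nrp1 and 1.22e-08 for Nrp2. Nrp2 ran from −0.94 in Hepa 1-6 to 0.48 in BNL, and Kdr was lowest in Renca at −1.06.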

How the results depend on the processing

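The limits are those of TPM values without depth, of 3 tumors per group, and of NT tumors shared between comparisons. Under LEN, the direction and call of the mean changes of Kdr, Flt4 and Nrp1 held under every alternative in which the gene was tested. Kdr and Flt4 were not tested under the minimum of 5 TPM, which drops them. In the exact sign-flip test over 12 models, the mean changes kept their size but missed the threshold for Flt1 under LEN (−0.43, P = 0.0562), Nrp2 under LEN (0.14, P = 0.0713) and Kdr from treatment-naïve to NT (−0.18, P = 0.163). The cause of each change of call given here was not tested, except where fewer genes or tumors were fitted.

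Same-numbered tumors did not deviate together (r −0.076 to 0.076 for NT and LEN, −0.143 to 0.103 for treatment-naïve and NT), so the numbers pair nothing. With a replicate block, the F test over models missed for Kdr (F = 1.73, adjusted P = 0.348) and Nrp2 (F = 1.15, adjusted P = 0.543), the mean change of Nrp2 under LEN was 0.10 (adjusted P = 0.181), 1280 genes were higher and 1180 lower under LEN, and 1082 were higher and 830 lower from treatment-naïve to NT. The block changed no other call of these means and F tests.

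Upper-quartile and protein-coding rescaling gave 3160 and 2889 lower genes under LEN, and 3519 and 4458 lower with 1421 and 1193 higher genes from treatment-naïve to NT, where a minimum of 5 TPM gave 951 lower. The change of Nrp2 from treatment-naïve to NT became −0.090 and −0.10, both called, and the F of Flt1 there 2.42 after protein-coding rescaling (adjusted P = 0.0357). Within models, a minimum of 5 TPM, which drops low genes, left 1 model with lower Kdr, 1 with lower Flt1, 0 with lower Flt4 and 1 with higher Nrp2; higher Nrp2 was also called in 1 model with a pseudocount of 0.1 and with upper-quartile rescaling. The fit of all 72 tumors called lower Kdr in 6, Flt4 in 9 and Nrp1 in 2 models, and higher Nrp2 in 2. With a pseudocount of 0.1, Kdr minus Flt4 was 0.48, Flt1 minus Flt4 was 0.86 and Flt4 minus the endothelial mean was −0.49, all called; Flt1 minus Flt4 was 0.50 after protein-coding rescaling, also called.

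Signs turned for small differences. Within models under LEN, upper-quartile and protein-coding rescaling gave −0.13 and −0.058 for Nrp1 in BNL, −0.12 and −0.050 for Nrp2 in BNL, and −0.0081 and −0.031 for Nrp2 in EMT6; upper-quartile rescaling gave −0.046 for Flt4 in Hepa 1-6 and 0.021 for Nrp2 in Renca, and protein-coding rescaling 0.015 for Flt1 in 4T1. Against the other treatment-naïve models, the same rescalings gave 0.059 and 0.14 for Kdr in 4T1, 0.11 and 0.20 for Flt1 in RAG, 0.10 and 0.11 for Flt1 in KLN205, 0.15 and 0.22 for Flt4 in KLN205 (0.029 with a pseudocount of 0.1), −0.081 and −0.14 for Flt4 in B16-F10, −0.036 and −0.053 for Nrp1 in LL/2, 0.010 and 0.077 for Nrp1 in 4T1, −0.049 and −0.12 for Nrp2 in MC38, 0.27 and 0.34 for Nrp2 in 4T1 and −0.060 and −0.17 for Nrp2 in B16-F10. Protein-coding rescaling gave −0.082 for Nrp1 in Hepa 1-6. Of these, Nrp2 in 4T1 was called.

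Leaving out 1 model or tumor gave −0.23 to −0.10 for Kdr, −0.22 to −0.14 for Flt1, −0.080 to 0.025 for Nrp1 and −0.084 to 0.045 for Nrp2 from treatment-naïve to NT, with an F of 1.40 to 2.56 for Flt1 (called without LL/2-Base replicate 2 or RAG-NT replicate 1). Under LEN it gave 0.090 to 0.17 for Nrp2 with an F of 2.28 to 3.85. Higher genes numbered 1440 (without BNL) to 3262 under LEN and 1765 (without KLN205; 1950 without EMT6) to 3891 from treatment-naïve to NT. Differences between genes ranged from −0.016 to 0.074 for Kdr minus Flt4, −0.72 to −0.47 for Flt1 minus Nrp2, −0.22 to 0.012 for Flt1 minus Nrp1 and −0.10 to 0.0081 for Kdr minus the endothelial mean. Within models, 0 to 1 model had higher Nrp2 (Hepa 1-6 without NT replicate 4, B16-F10 without LEN replicate 2), and ranges crossing 0 were −0.41 to 0.21 for Flt1 and −0.44 to 0.091 for Nrp2 in 4T1, −0.057 to 0.19 for Flt4 in Hepa 1-6 and −0.15 to 0.024 for Nrp2 in MBT2. In treatment-naïve tumors they were −0.085 to 0.083 for Flt1 in RAG, −0.18 to 0.0062 for Flt4 in KLN205, −0.044 to 0.075 for Flt4 in B16-F10, and for Nrp1 −0.0031 to 0.29 in Hepa 1-6, −0.21 to 0.0028 in Renca and −0.031 to 0.049 in LL/2. Without the LEN tumor of 4T1 with the lowest protein-coding share, an alternative chosen after seeing the data, list counts moved by at most 1 gene.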
